A study of Mus musculus with 12 samples.

Results

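The microRNA (miRNA) genes described here lie between Meg3 and Dio3 on mouse chromosome 12. They were taken by symbol from a list of 54 genes, with or without a trailing letter a, and 50 of them had a probe set among the 25206 on the array. Mir299 and Mir496 were matched as Mir299a and Mir496a, while Mir341, Mir410, Mir433 and Mir770 were not analysed here. The list was chosen by their levels in earlier results of these data, in which the genes stood out between the sorted fractions, so for these genes that contrast is a description: values and counts past a threshold are given, with no p-value, and support nothing.

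The samples were embryonic stem cells (ESC) and reprogrammed, or induced, pluripotent stem cells (iPSC) of female C57BL/6 mice, all grown without serum or feeder cells in 2iLIF medium. Cells were stained with TMRM, a dye that accumulates in mitochondria according to their membrane potential, and flow sorting gave a fraction of low and one of high potential. Total RNA from 4 groups (ESC low, ESC high, iPSC low and iPSC high) was measured on 12 arrays, 3 per group, which the labels number 2, 3 and 4. The labels do not say whether the arrays of a group came from separate cultures, so a p-value speaks only of the variation among the arrays at hand, part or all of which may be technical. The number of lines or clones behind the ESC and iPSC is not given in the sources used here. All 4 groups are sorted cells, with no unsorted sample among them.

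The Meg3-Dio3 domain is imprinted: its protein-coding genes Dlk1, Rtl1 and Dio3 are expressed from the paternal chromosome, and its noncoding RNAs from the maternal one. The maternal transcripts Meg3, Rian and Mirg run in the same direction, and long primary transcripts of the region are cut by Drosha and Dgcr8 into hairpins and then by Dicer1 into mature miRNAs. The mature strand guides an Argonaute protein to messenger RNAs that pair with its seed, bases 2 to 8. In mouse iPSC the domain is known because its maternal genes are silenced in some clones, and in neurons its largest miRNA cluster is known for activity-dependent transcription.

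By gene order the listed genes fall into 4 stretches. The Meg3-Rtl1 stretch held 12 listed and 10 measured genes, and the 10 measured ones all overlap Rtl1. The Rian stretch held 4 listed and 3 measured. The Mirg stretch, also called the miR-379/miR-410 cluster, held 37 listed and 36 measured genes. The Dio3 side held 1 gene, Mir1247, which overlaps Dio3os and was the 1 measured gene on the minus strand. Of the Mirg stretch, 28 measured genes precede the annotated start of Mirg and 8 lie inside it.

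The genes with the largest differences between the fractions, described below, encode the following mature miRNAs, whose sequences are shown with the seed in capitals. They are RefSeq sequences of assembly GRCm38.p6, in which all 54 listed genes had a mature sequence.
miR-154-5p: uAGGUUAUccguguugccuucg
miR-154-3p: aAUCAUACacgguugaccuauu
miR-369-3p: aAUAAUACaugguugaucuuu
miR-412-3p: uUCACCUGguccacuagccg
miR-323-3p: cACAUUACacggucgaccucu
miR-485-3p: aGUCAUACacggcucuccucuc
miR-543-3p: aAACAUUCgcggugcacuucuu

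Among 101 distinct mature sequences of the listed genes, 9 seeds were shared by sequences of more than 1 gene, and 14 genes took part. Only 1 mature sequence each was at hand for Mir882, Mir376c, Mir487b, Mir539, Mir485 and Mir453. Seeds shared through a sequence not at hand would be missed, so the families may be incomplete. The pairs are shown because members of a seed family can address the same target sites. The first 3 seeds shown linked 4 genes (Mir379, Mir411, Mir1193 and Mir370) into a chain, with Mir379 and Mir1193 each taking part through both arms.
miR-379-3p: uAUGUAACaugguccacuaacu
miR-411-3p: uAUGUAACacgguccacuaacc
miR-379-5p: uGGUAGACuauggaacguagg
miR-1193-5p: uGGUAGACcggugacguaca
miR-1193-3p: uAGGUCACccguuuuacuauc
miR-370-5p: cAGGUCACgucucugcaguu

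Another 3 shared seeds began with the same letters GGUUG, all of them in the Mirg stretch. This run at bases 2 to 6, a motif picked after the sequences were seen, was present in 6 of 101 distinct mature sequences of the listed genes (5.94%) and in 2 of 1573 mature sequences of all other miRNAs in the table (0.127%).
miR-1197-5p: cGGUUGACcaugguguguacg
miR-758-5p: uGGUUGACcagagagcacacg
miR-453: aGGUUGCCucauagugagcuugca
miR-496a-5p: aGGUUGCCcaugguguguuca
miR-494-5p: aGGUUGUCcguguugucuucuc
miR-410-5p: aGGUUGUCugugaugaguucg

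The remaining families among the sequences at hand were Mir376b with Mir376c, and the neighbours Mir3070a and Mir3070b, which share seeds on both arms. Near-identical hairpins such as these can share signal on an array, so values of the Mir3070 and Mir376 genes are uncertain as to the copy.
miR-376b-5p: gUGGAUAUuccuucuaugguua
miR-376c-5p: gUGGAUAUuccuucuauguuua
miR-3070-3p: uGGUGCUAccgucagggguaga
miR-3070-2-3p: uGGUGCUAuggucagggguaga

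Values are log2 expression after RMA, 1 value per probe set and array. They do not separate primary transcript, hairpin and mature miRNA, and carry no detection calls. Array medians over all probe sets lay between 3.51 and 3.61. Of the 50 measured genes, 37 had a 12-array mean above the median of all probe sets, and 4 (Mir299a, Mir495, Mir376c and Mir376a) lay below 2.15, the mean lower quartile of the arrays. The brightest probe sets by mean were those of Mir329 (8.07), Mir493 (7.92), Mir453 (7.51), Mir665 (7.20), Mir679 (6.81) and Mir667 (6.75), but levels of different probe sets are not comparable as amounts of RNA. The labelled cell types were checked against their markers: the mean over 8 pluripotent cell markers ranged from 8.04 to 8.24 over the 12 arrays, and that over 9 fibroblast markers from 2.59 to 2.78, below every array's median.

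The first question was whether the miRNA genes differed between cells of low and high membrane potential. Most of them were higher in the high fraction, in both cell types, above all those of the Mirg stretch. The median difference between the high and the low fraction, averaged over both cell types, was 0.82 on the log2 scale over the 50 genes (range -0.01 to 1.56), and 0.00 over all probe sets. The difference was above 0 for 49 of the 50 genes. In bulk samples such as these, a difference in the number of cells that express a gene and one in RNA per cell cannot be told apart.

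**Figure D1:**
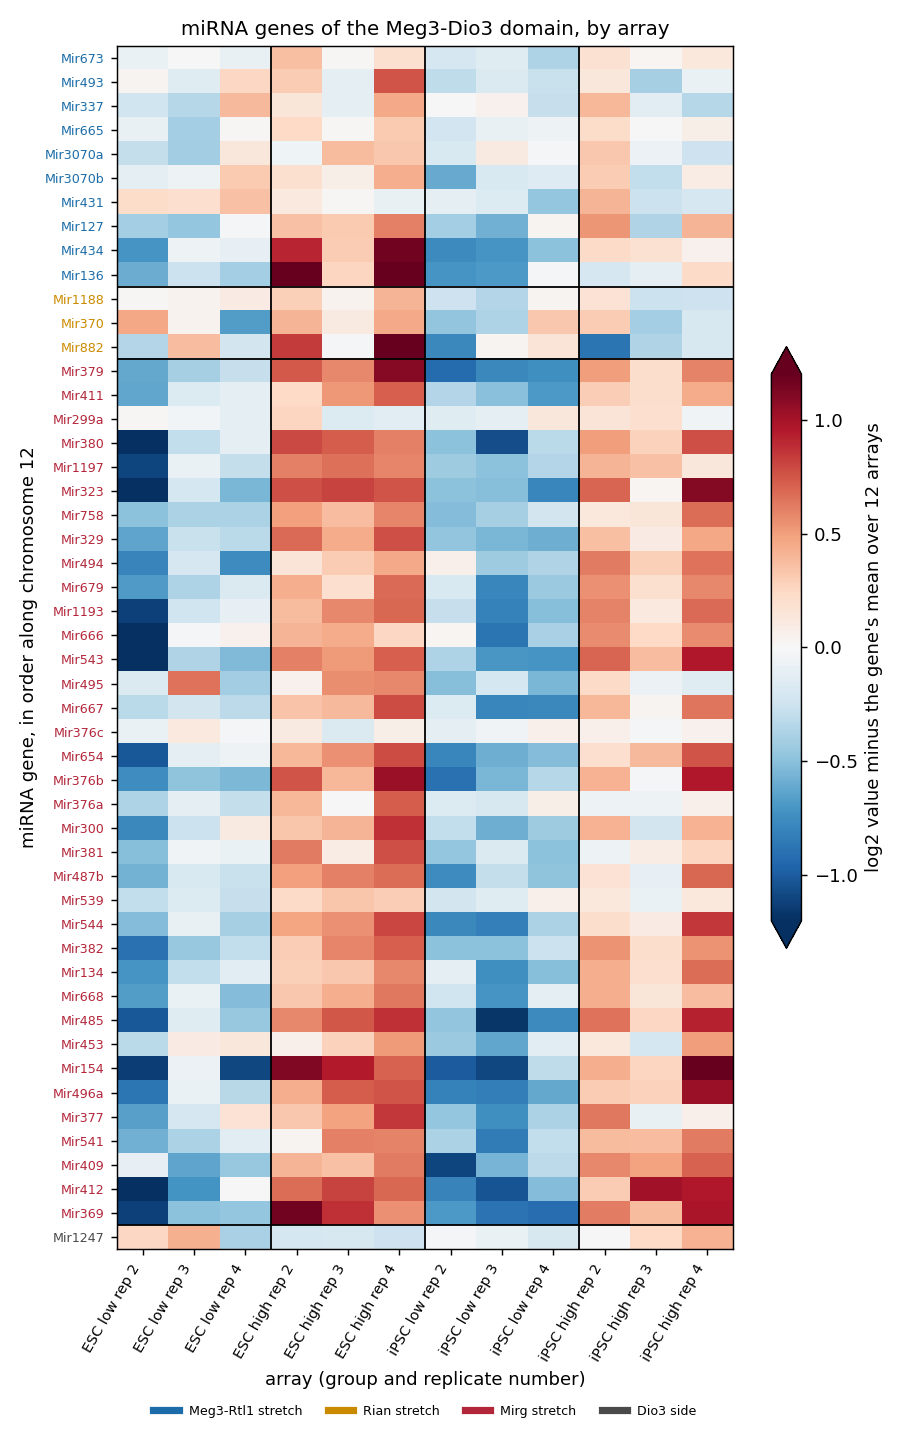
Heat map of the 50 measured miRNA genes (rows, in order along chromosome 12) on the 12 arrays (columns). Colour gives the log2 value minus the gene's mean over the 12 arrays, with red higher and blue lower; the Mirg stretch is blue on most low and red on most high arrays, with a mean deviation of -0.73 on ESC low replicate 2 and of 0.65 on ESC high replicate 4.

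The shift was visible on single arrays. The median over the 50 genes was 3.85, 4.37 and 4.35 on the ESC low arrays (replicates 2, 3 and 4) and 4.95, 4.91 and 5.01 on the ESC high arrays. It was 4.04, 3.84 and 4.05 on the iPSC low arrays and 4.83, 4.57 and 5.16 on the iPSC high arrays. Every high array thus lay above every low array. The median over the 488 other miRNA genes lay between 2.11 and 2.36 on the 12 arrays. In iPSC it too was higher on each high array (2.27 to 2.36) than on each low array (2.18), while in ESC the fractions overlapped.

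With limma's moderated test and Benjamini-Hochberg adjustment over all probe sets at 0.05, 32 of the 50 genes were called higher in the high fraction over both cell types and 0 were called lower. Over all probe sets 1.6% were called higher, which was 403, and 228 were called lower; with each array centred on its own median these became 361 higher and 368 lower, and 31 of the 32 miRNA genes were still called. Since the genes were chosen on this contrast, nothing is read from these counts. The 32 genes made up 64% of the measured miRNA genes and 7.94% of the 403 probe sets called higher, and 23 of the 50 were among the 100 largest rises. All 6 high arrays exceeded all 6 low arrays for 29 of the genes, against 1.19% of all probe sets. Of these 29 genes, 27 lay in the Mirg stretch and the others were Mir673 and Mir434.

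Within each cell type fewer genes passed. In ESC, 11 of the 50 were called higher (0.305% of all probe sets), namely Mir379, Mir1197, Mir758, Mir329, Mir543, Mir376b, Mir539, Mir382, Mir485, Mir154 and Mir369. With the replicate number as a block the count was 24. Leaving out 1 array gave 4 (ESC high replicate 2), 3 (ESC high replicate 4), 4 (ESC low replicate 2), 6 (ESC low replicate 4) or 6 (iPSC high replicate 2). The 3 high arrays exceeded the 3 low arrays for 36 of the 50 genes in ESC, against 6.71% of all probe sets.

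In iPSC, 12 of the 50 were called higher (0.349% of all probe sets): Mir379, Mir411, Mir329, Mir543, Mir544, Mir382, Mir485, Mir496a, Mir541, Mir409, Mir412 and Mir369. With the replicate number as a block the count was 21. Leaving out 1 array of the iPSC high group gave 0 (replicate 4), 5 (replicate 2) or 6 (replicate 3), and leaving out 1 of the iPSC low group gave 2 (replicate 4) or 3 (replicate 3). It was 19 without ESC low replicate 2, which enters only the estimate of spread. High and low arrays did not overlap for 35 genes in iPSC, against 9.76% of all probe sets. Genes called in each cell type separately numbered 6 (Mir379, Mir329, Mir543, Mir382, Mir485 and Mir369). Over all probe sets the share called higher in both was not counted, but it cannot exceed the 0.305% called higher in ESC.

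By stretch, the 36 measured genes of the Mirg stretch had a median difference of 0.87 over both cell types (range 0.03 to 1.56), 0.89 in ESC and 0.88 in iPSC. The median was 0.85 over the 28 genes before the annotated start of Mirg and 1.12 over the 8 genes inside it. The genes called over both cell types numbered 30 of 36 in the stretch, 23 of the 28 and 7 of the 8, counts on the contrast behind the choice that are given as a description. The 3 largest differences, those of Mir154, Mir369 and Mir412, belonged to genes inside Mirg, as the plot of differences in gene order shows.

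**Figure D2:**
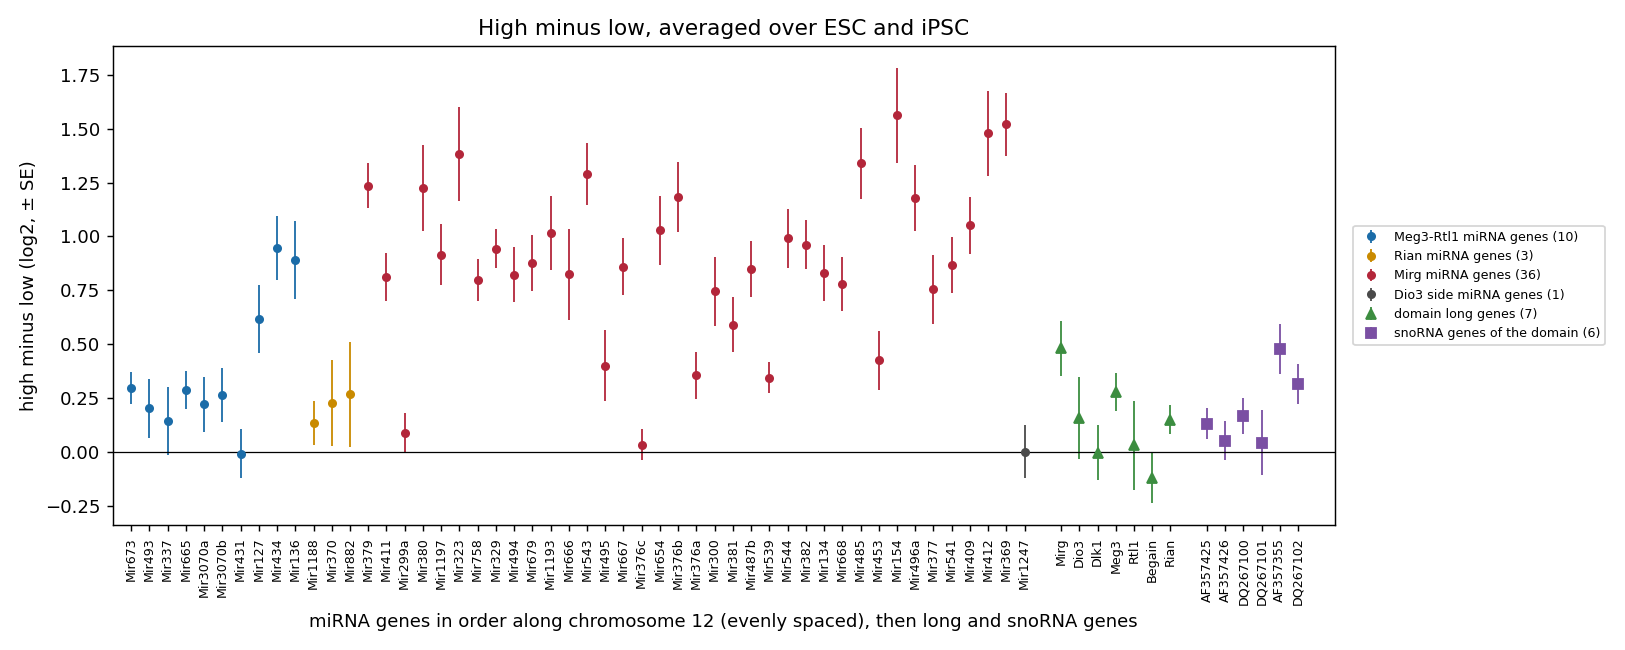
High minus low difference (log2, mean of the differences in ESC and iPSC, error bars SE) for each measured miRNA gene in its order along chromosome 12, followed by 7 long genes and 6 snoRNA genes of the domain. Values step up within the Meg3-Rtl1 stretch at Mir127, Mir434 and Mir136, run from 0.03 to 1.56 in the Mirg stretch, and lie between -0.12 and 0.48 for the long and snoRNA genes.

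Mir154, near the Dio3 end of the cluster, had the largest difference. Its log2 values were 3.02, 4.08 and 3.07 on the ESC low arrays and 5.27, 5.10 and 4.86 on the ESC high arrays. In iPSC they were 3.16, 3.07 and 3.85 in the low and 4.59, 4.41 and 5.39 in the high fraction. All 6 high values exceeded all 6 low values, and the difference was 1.69 ± 0.31 (SE) in ESC and 1.44 ± 0.31 in iPSC.

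Mir369, the last measured gene of the cluster, encodes a miRNA that has been used with members of other families to reprogram somatic cells. It stood at 3.04, 3.67 and 3.70 in ESC low and at 5.32, 5.04 and 4.71 in ESC high. In iPSC it stood at 3.47, 3.27 and 3.24 in the low and at 4.78, 4.54 and 5.14 in the high fraction. Low and high arrays were separated by more than the spread within any group, with a difference of 1.52 ± 0.14 over both cell types.

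Its neighbour Mir412 was dim in the low fractions, at 1.38, 2.01 and 2.73 in ESC and 1.93, 1.69 and 2.21 in iPSC. The high fractions held 3.40, 3.54 and 3.42 in ESC and 3.03, 3.73 and 3.69 in iPSC. Its difference of 1.48 ± 0.20 rests on low values close to the arrays' lower quartile, where the level cannot be set against background.

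Mir323, which lies earlier in the cluster, stood at 3.16, 4.55 and 4.21 in ESC low and 5.53, 5.57 and 5.51 in ESC high. In iPSC its values were 4.27, 4.25 and 3.98 against 5.45, 4.78 and 5.86. ESC low replicate 2 was the lowest of the 12 arrays. The difference was 1.57 ± 0.31 in ESC and 1.20 ± 0.31 in iPSC.

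Mir485, whose product acts on synaptic proteins in neurons, stood at 4.30, 5.17 and 4.86 against 5.89, 6.06 and 6.19 in ESC, and at 4.84, 4.15 and 4.55 against 5.96, 5.56 and 6.24 in iPSC. Mir543 stood at 4.99, 5.84 and 5.67 against 6.80, 6.71 and 6.92 in ESC, and at 5.83, 5.50 and 5.49 against 6.90, 6.56 and 7.16 in iPSC. Both were separated without overlap in each cell type, by 1.34 ± 0.16 and 1.29 ± 0.14. Mir329, the brightest probe set of the cluster and one of its activity-dependent members in neurons, stood at 7.44, 7.81 and 7.75 against 8.76, 8.52 and 8.85 in ESC and at 7.60, 7.52 and 7.48 against 8.43, 8.17 and 8.54 in iPSC, a difference of 0.94 ± 0.09.

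The first gene of the cluster, Mir379, stood at 2.85, 3.07 and 3.19 in ESC low, 4.20, 4.04 and 4.56 in ESC high, 2.55, 2.69 and 2.73 in iPSC low and 3.96, 3.68 and 4.06 in iPSC high. Low and high arrays did not overlap, and the differences in ESC and iPSC were 1.23 ± 0.15 and 1.24 ± 0.15. Of its seed partners, Mir411 differed by 0.81 ± 0.11 and Mir1193 by 1.02 ± 0.17, while Mir370 of the Rian stretch, linked to Mir1193 by the AGGUCAC seed, differed by 0.23 ± 0.20 and was not called. The chain thus held called genes of the Mirg stretch and an uncalled gene of the Rian stretch.

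The measured genes of the GGUUG seeds all lie in the Mirg stretch. Mir1197 (0.92 ± 0.14) and Mir758 (0.80 ± 0.10) were called, as were Mir496a (1.18 ± 0.15) and Mir494 (0.82 ± 0.13). Mir453, the partner of Mir496a, had a difference of 0.42 ± 0.14 and was not called. In the UGGAUAU pair, Mir376b stood at 3.44, 3.70 and 3.65 against 4.94, 4.58 and 5.22 in ESC, and at 3.29, 3.64 and 3.84 against 4.60, 4.17 and 5.14 in iPSC, a difference of 1.18 ± 0.16. Its partner Mir376c stayed between 1.05 and 1.34 on all 12 arrays, below the lower quartile, with a difference of 0.03 ± 0.07.

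The other called genes of the Mirg stretch ranged from 0.34 to 1.22. Mir380 (1.22), Mir409 (1.05) and Mir654 (1.03) were the highest of these. Mir134, which limits the size of dendritic spines in neurons, differed by 0.83. Mir544 (0.99), Mir382 (0.96), Mir679 (0.88), Mir541 (0.87), Mir667 (0.86), Mir487b (0.85), Mir668 (0.78), Mir377 (0.75), Mir300 (0.74), Mir381 (0.59) and Mir539 (0.34) made up the rest. The 6 genes of the stretch that were not called were Mir666 (0.82 ± 0.21), whose ESC low values ran from 3.11 to 4.42, and Mir453, Mir495 (0.40), Mir376a (0.36), Mir299a (0.09) and Mir376c.

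The Meg3-Rtl1 stretch differed less, with a median of 0.27 over both cell types. Rtl1 is a retrotransposon-derived gene needed in the placenta, and several miRNAs of the stretch lie antisense to it and pair perfectly with its transcript. Only Mir434 and Mir136, the last genes of the stretch, were called out of 10. Some of their low-fraction values lay below 2.15, the mean lower quartile of the arrays, where the level cannot be set against background. Mir434 stood at 2.08, 2.73 and 2.69 against 3.70, 3.10 and 3.95 in ESC and at 2.03, 2.08 and 2.29 against 3.02, 2.97 and 2.85 in iPSC, so that all high arrays lay above all low arrays, by 0.95 ± 0.15.

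Mir136 overlaps Mir3071 on the opposite strand, as Mir337 does Mir3544 and Mir299a does Mir299b. Whether the probes of these genes tell the strands apart is not given in the sources used here. Mir136 stood at 2.23, 2.57 and 2.43 against 4.13, 3.09 and 4.04 in ESC, a difference of 1.34 ± 0.26. In iPSC it stood at 2.12, 2.14 and 2.82 against 2.64, 2.72 and 3.06, where low and high arrays overlapped and the difference was 0.44 ± 0.26. Mir127, the best known of the Rtl1-directed miRNAs, had values of 3.24, 3.18 and 3.63 against 4.0, 3.96 and 4.25 in ESC and of 3.24, 3.07 and 3.68 against 4.18, 3.29 and 4.05 in iPSC, and was not called at 0.62 ± 0.16.

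The other 7 genes of the stretch were not called either, with differences of 0.30 (Mir673), 0.29 (Mir665), 0.26 (Mir3070b), 0.22 (Mir3070a), 0.20 (Mir493), 0.14 (Mir337) and -0.01 (Mir431). Mir673 was separated without overlap all the same, its low arrays reaching 6.40 and its high arrays starting at 6.42. Mir431, another Rtl1-directed miRNA, was the 1 gene with a difference below 0. It stood at 3.84, 3.83 and 3.97 in ESC low and 3.74, 3.63 and 3.53 in ESC high, but at 3.51, 3.45 and 3.16 in iPSC low and 4.03, 3.36 and 3.42 in iPSC high.

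In the Rian stretch 0 of 3 genes were called, with differences of 0.27 (Mir882), 0.23 (Mir370) and 0.13 (Mir1188). Mir1247, the gene on the Dio3 side, had a difference of 0.00 ± 0.12, made of -0.31 in ESC and 0.32 in iPSC. Its values were 5.09, 5.27 and 4.46 against 4.64, 4.65 and 4.60 in ESC and 4.82, 4.76 and 4.65 against 4.84, 5.08 and 5.26 in iPSC.

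Hairpin features were set beside the difference between the fractions. Across 48 genes with a hairpin sequence, Spearman's rho of the difference with hairpin GC content was -0.27, and within the Mirg stretch it was 0.28 over 34 genes. Median GC content was 54.1% in the Meg3-Rtl1 stretch and 43.4% in the Mirg stretch. These correlations run across genes measured on the same arrays and are descriptions only. With the mean level the difference correlated at 0.05 over the 48 genes.

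A second question was whether the differences between the fractions were the same in ESC and iPSC. This was tested as the iPSC difference minus the ESC difference. In limma's test 0 of the 50 genes passed, as did 0.0% of all 25206 probe sets, and the adjusted p was 1.0 for the miRNA genes; 5 genes had an unadjusted p under 0.05 (1100 over all probe sets). The median over the 50 genes was -0.09, with a range of -1.09 to 0.63, and it was 0.10 without ESC low replicate 2. The intervals are wide, so this does not show that the cell types are alike: for Mir154 the 95% interval of the change in difference ran from -1.21 to 0.71, and for Mir379 from -0.43 to 0.46.

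**Figure D3:**
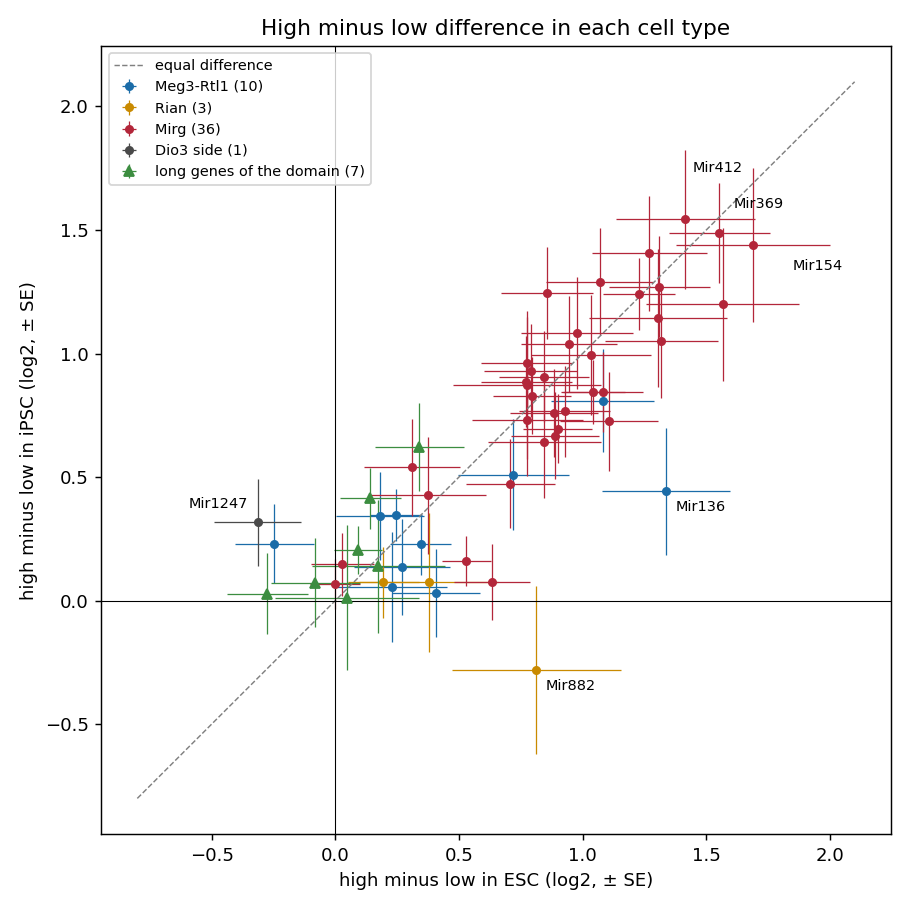
High minus low difference in ESC (horizontal axis) against that in iPSC (vertical axis), log2 with SE bars, for the 50 miRNA genes coloured by stretch and for 7 long genes of the domain (triangles). The dashed line marks equal differences; Mirg genes such as Mir369 (1.55 and 1.49) and Mir412 (1.42 and 1.54) lie near it, Mir136 (1.34 and 0.44) and Mir882 (0.81 and -0.28) below it.

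The 5 genes with the low unadjusted p were Mir539, Mir376a, Mir1247, Mir136 and Mir882. Mir882 had the largest change in difference, at -1.09 ± 0.48 (95% interval -2.14 to -0.05). It stood at 2.54, 3.26 and 2.67 against 3.73, 2.88 and 4.30 in ESC and at 2.12, 2.92 and 3.05 against 2.01, 2.53 and 2.70 in iPSC, so its low and high arrays overlapped in both. For Mir136 the change was -0.90 ± 0.36, for Mir376a -0.56 ± 0.22, for Mir539 -0.37 ± 0.14 and for Mir1247 0.63 ± 0.25. None of these passes the adjustment over all probe sets.

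The third comparison set iPSC against ESC, averaged over the fractions, and is likewise a description for the miRNA genes, with values and counts but no p-value of a single gene. The miRNA genes were slightly lower in iPSC, with a median of -0.14 against 0.01 over all probe sets, and 42 of the 50 lay below 0. In this comparison 0 of the 50 were called (2.87% of all probe sets were called in either direction), 12 had an unadjusted p under 0.05 (3709 over all probe sets), and for 0 of them did all iPSC arrays lie below all ESC arrays (1.75% of all probe sets). The median was -0.12 in the low fraction and -0.18 in the high fraction. The count called was 1 with the replicate number as a block, 2 without ESC high replicate 3, 1 without ESC low replicate 2 and 1 without iPSC high replicate 2.

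**Figure D4:**
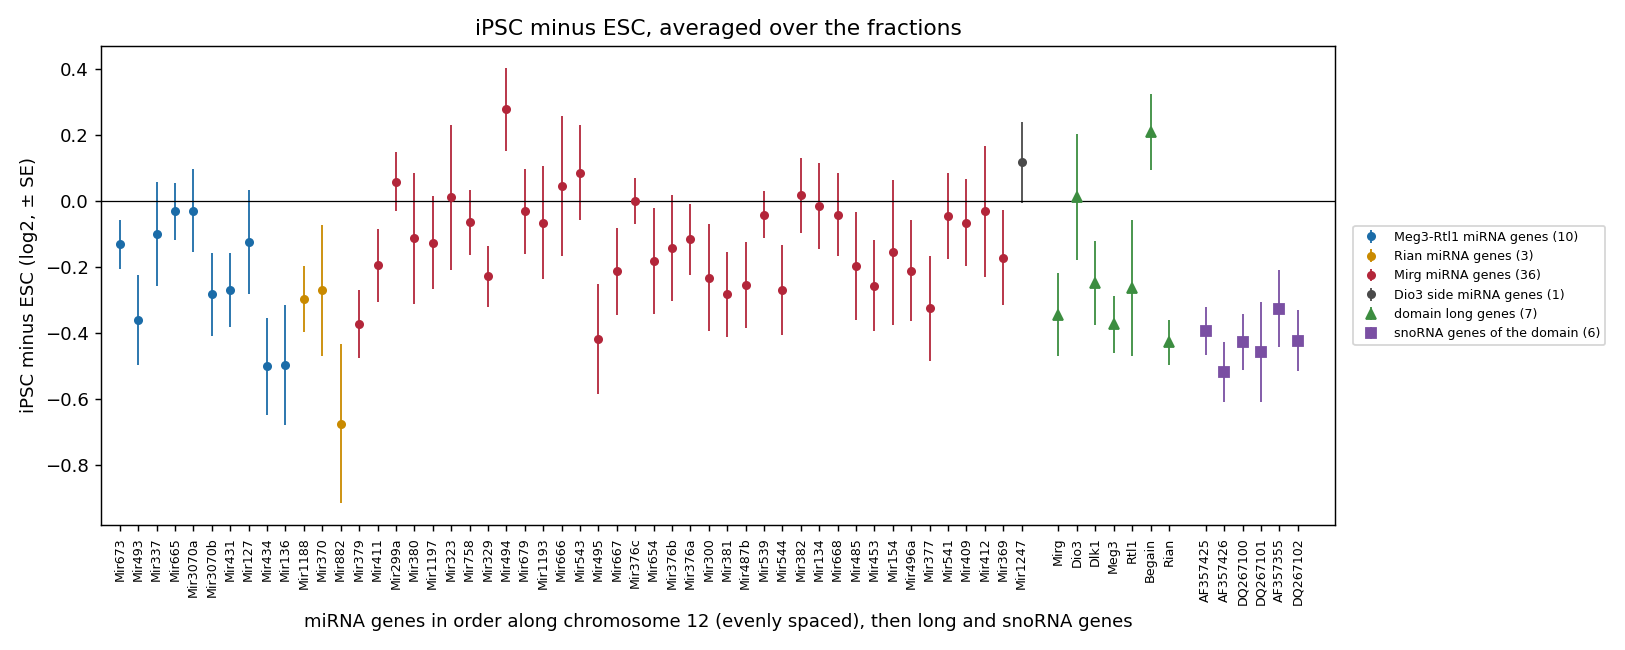
iPSC minus ESC difference (log2, averaged over the low and high fractions, error bars SE) for each measured miRNA gene in order along chromosome 12, followed by 7 long genes and 6 snoRNA genes of the domain. The miRNA genes lie between -0.67 (Mir882) and 0.28 (Mir494), the 6 snoRNA genes between -0.52 and -0.33.

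The 8 genes with the largest size of this difference were all lower in iPSC: Mir882 (-0.67 ± 0.24), Mir434 (-0.50 ± 0.15), Mir136 (-0.50 ± 0.18), Mir495 (-0.42 ± 0.17), Mir379 (-0.37 ± 0.10), Mir493 (-0.36 ± 0.14), Mir377 (-0.32 ± 0.16) and Mir1188 (-0.30 ± 0.10). For Mir136 and Mir882 the gap lay in the high fraction, at -0.94 and -1.22, and was -0.05 and -0.13 in the low fraction. For Mir379 it was -0.38 in the low fraction, close to the -0.37 of the high one. The genes nearest to 0 were Mir376c (0.00), Mir323 (0.01) and Mir134 (-0.02).

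The long genes of the domain were read in the same comparisons. Between the fractions 0 of 7 passed in limma's test, with 3 at an unadjusted p under 0.05. Mirg, the host transcript of the Dio3 end of the cluster, had group means of 6.09 ± 0.31 (SD, n = 3) in ESC low, 6.44 ± 0.14 in ESC high, 5.61 ± 0.30 in iPSC low and 6.23 ± 0.20 in iPSC high. Its difference was 0.48 ± 0.13 (limma adjusted p = 0.0714). The differences of the 8 measured miRNA genes inside its span ran from 0.42 (Mir453, not called) to 1.56. Those of the 7 called ones were between 0.75 and 1.56. Meg3 (0.28 ± 0.09, limma adjusted p = 0.132) and Rian (0.15 ± 0.07, limma adjusted p = 0.316) had smaller values, and Dlk1 (0.00), Rtl1 (0.03) and Dio3 (0.16) were close to 0. The difference between a host gene and its miRNA genes was not tested.

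Between iPSC and ESC, Rian and Meg3 were lower. Rian had group means of 8.80 ± 0.11 and 8.89 ± 0.09 in ESC low and high and of 8.32 ± 0.03 and 8.52 ± 0.12 in iPSC low and high (SD, n = 3). Its 6 iPSC arrays all lay below its 6 ESC arrays, with a difference of -0.43 ± 0.07 (limma adjusted p = 0.0058). Meg3 had a difference of -0.37 ± 0.09 (limma adjusted p = 0.0396), which lost the threshold when any 1 of 9 arrays was left out, that is any but ESC low replicate 2, iPSC high replicate 2 or iPSC low replicate 4 (limma adjusted p from 0.0564 without ESC high replicate 3 to 0.0945 without iPSC high replicate 3). Mirg had a difference of -0.34 ± 0.13 (limma adjusted p = 0.206).

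Small nucleolar RNA (snoRNA) genes of the domain, examined after the values of the others were seen, were also lower in iPSC. Of 6 measured, 4 passed, against 2.87% of all probe sets in either direction. These were AF357426 (-0.52 ± 0.09, limma adjusted p = 0.01), DQ267100 (-0.43 ± 0.08, 0.0181), DQ267102 (-0.42 ± 0.09, 0.03) and AF357425 (-0.39 ± 0.07, 0.0133). As the set was chosen after values were seen, the calls and p-values of these genes are descriptions and support nothing. The median of the 6 was -0.43. Between the fractions 0 of the 6 passed in limma's test (2 at an unadjusted p under 0.05), with a median of 0.15 and AF357355 the highest at 0.48 ± 0.12 (limma adjusted p = 0.0509). DQ267102 lost the iPSC against ESC call with the replicate block (limma adjusted p = 0.0501) and without any 1 of 8 arrays (0.0585 to 0.0787), that is any but ESC high replicates 2 and 3, ESC low replicate 2 and iPSC high replicate 2. DQ267100 lost it without iPSC high replicate 4 (0.0551). Mir540, a miRNA gene of the domain outside the list and also named after its values were seen, differed by 0.11 ± 0.10 between the fractions (limma adjusted p = 0.658).

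All other measured miRNA genes, which include Mir540 of the domain, served as the comparison. They are unlike the 50 listed genes in level. Their median was 2.11 to 2.36 on the 12 arrays, near the arrays' lower quartile (2.08 to 2.20), against 3.84 to 5.16 for the 50. Few calls among them therefore cannot be set directly against those of the 50. Of 488, 13 were higher and 5 lower in the high fraction by limma's test over both cell types, with a median of 0.04. Over all 25206 probe sets 403 (1.6%) were higher and 228 lower. The lowest p-values belonged to Mir138-2 (1.91 ± 0.18, limma adjusted p = 0.000257), Mir674 (0.76 ± 0.10, 0.002) and Mir96 (0.74 ± 0.10, 0.0027). All high arrays exceeded all low arrays for 6 of the 488, against 1.19% of all probe sets. Within ESC this held for 54 of the 488 (6.71% of all probe sets) and within iPSC for 65 (9.76% of all probe sets). The miRNAs best known from pluripotent cells, the miR-290 and miR-302 families, had 0 of 6 measured genes past the threshold and a median of -0.08, and 0 of 5 measured genes of the miR-17 cluster passed, with a median of -0.04 (0 genes of either list had an unadjusted p under 0.05 in this average). For the miR-290 and miR-302 genes the median was 0.11 in ESC, with 4 of 6 above 0, and -0.25 in iPSC, with 6 of 6 below 0. In each cell type, and in the difference of the effects, 0 of the 6 passed limma's adjusted test, with 1, 1 and 2 at an unadjusted p under 0.05. The mean over these 6 probe sets lay between 2.40 and 3.14 on the 12 arrays, below every array's median. At such levels, which cannot be set against background, the counts do not show that these miRNAs were unchanged.

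The miRNA processing list held Drosha and Dgcr8, which cut the primary transcript, Dicer1, which cuts the hairpin, the Argonaute genes and their partners. Between the fractions 0 of 14 passed in limma's test (2 at an unadjusted p under 0.05), with a median of -0.08. Ddx17, a helicase of the Drosha complex, differed by -0.28 ± 0.09 (limma adjusted p = 0.12) and Dgcr8 by -0.20 ± 0.07 (0.194). Between iPSC and ESC only Dicer1 passed out of 14, lower in iPSC (-0.41 ± 0.07, limma adjusted p = 0.00598), with all 6 iPSC arrays below all 6 ESC arrays.

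Of 18 regulators of the domain's imprint, 0 passed between the fractions in limma's test (0 at an unadjusted p under 0.05), with a median of 0.00. Between iPSC and ESC 4 passed. Tet3, which oxidises methylated cytosine, was higher in iPSC (1.04 ± 0.11, limma adjusted p = 0.0007), as was Dnmt3l, the cofactor of the de novo methyltransferases (1.63 ± 0.31, 0.016). Dnmt3a, a de novo methyltransferase (-0.55 ± 0.10, 0.012), and Dppa3, which protects imprints in the early embryo (-1.20 ± 0.20, 0.0069), were lower. Zfp57 and Trim28, which keep imprints methylated, had differences of 0.13 and 0.04.

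Markers of other cell types were read beside these results. Between the fractions 0 of 9 fibroblast, 0 of 6 neural and 0 of 5 endoderm markers passed in limma's test, with medians of -0.01, -0.03 and -0.03 (1, 0 and 1 at an unadjusted p under 0.05). The mean over the neural markers ranged from 4.77 to 5.40 in ESC low, 4.79 to 5.28 in ESC high, 4.95 to 5.18 in iPSC low and 4.85 to 5.16 in iPSC high. Of the 8 pluripotent cell markers 0 passed as well (0 at an unadjusted p under 0.05). The arrays' lower quartile, a measure of the dim end where some of these probe sets lie, was 2.08 to 2.15 in iPSC low and 2.17 to 2.20 in iPSC high, and 2.11 to 2.16 and 2.12 to 2.15 in ESC low and high. Its part in the miRNA values was not tested.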

How the data were processed

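The authors deposited 1 table of log2 expression values, 25206 probe sets by 12 arrays. Per the submitters' processing notes it was made in R 2.15.1 with affy 1.36.1 by RMA, a method that subtracts background, equalises the arrays' distributions and summarises probes; the chip definition is not given in the sources used here. Array number, not read depth, limits precision. Platform annotation named 23185 probe sets and left 2021 unnamed; a RefSeq table (GRCm38.p6) gave gene order and sequences.

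limma 3.58.1 in R 4.3.3 fitted 1 mean per group over 12 arrays without a block, adjusted over 25206 probe sets at 0.05. Figures used matplotlib 3.10.9. Fits were tested on simulated data. The members and lists were chosen with earlier results of these data known, so single miRNA genes carry no p-value, and counts only describe, for high against low or iPSC against ESC. Named were members past the threshold, the 3 largest rises and falls per contrast, the 8 largest and 3 smallest iPSC against ESC differences, shared seeds, the 6 brightest and up to 3 genes per list by p; others are said to be so.

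For arrays sharing a number, the residual correlation of low with high was 0.34, 0.23 and 0.28 (ESC) and 0.11, 0.13 and 0.21 (iPSC). That the numbers pair the fractions is thus an inference from the data, which the labels do not state. The main fit does not use this pairing, and only the replicate block among the alternatives does. For high against low the block was the number within each cell type. For iPSC against ESC it was the number over all 12 arrays, which also joins ESC and iPSC arrays of the same number. The residual correlation of such arrays across cell types was -0.09 to 0.13, and the labels do not state that pairing either. Alternatives were median centring, a filter below 2.15, trended robust variances, the block, 1 cell type alone and leaving out each array.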

Additional observations from a re-analysis of the deposited data

How the results depend on the processing

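Of the 32 miRNA genes called higher over both cell types, 27 were called under all 16 alternatives. The other 5 (Mir136, Mir300, Mir377, Mir381 and Mir539) missed the threshold under 1 or more, and none changed direction; the cause was not tested. The count over both cell types was 27 to 32 with any array left out. In ESC the count of 11 became 6 with ESC arrays alone, 24 with the replicate block and 17 with trended robust variances, and 3 to 13 with an array left out. In iPSC the count of 12 became 21 with the replicate block and 0 to 19 with an array left out. The median difference in ESC was 0.67 to 0.91 with an array left out, lowest without ESC low replicate 2. The median change in difference was -0.16 to 0.10, above 0 without that array. The iPSC against ESC count was 1 with the replicate block and 0 to 2 with an array left out. The block changed no other count by over 1.5 times. With 3 arrays a group and no detection calls, the dimmest genes (Mir299a, Mir495, Mir376c and Mir376a) cannot be set against background.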
